A study of Mus musculus with 8 samples.

Results

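The 4 arrays described here compare mouse cells given fibroblast growth factor-2 (FGF2) together with the MEK inhibitor U0126, 2 arrays, with cells given FGF2 alone, 2 arrays. They were chosen by their labels, out of 8 arrays in all, and every probe set of the array was considered. The other 4 arrays are 2 of a vehicle control and 2 of FGF2 with SB202190, an inhibitor of the p38 kinases. They entered the same statistical fit and their values stand beside those of the U0126 comparison. Each sample was total RNA labelled as brain, cerebral cortex, while the title of the series speaks of astroglia. The sources used here give no dose, no time of treatment, no strain or age of the mice, and do not say whether replicates were separate cultures. No array of U0126 without FGF2 was part of the series as analysed, so an effect of the inhibitor on the FGF2 response and an effect of the inhibitor by itself cannot be told apart.

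FGF2 binds receptor tyrosine kinases that pass a signal through RAS and RAF to the kinases MEK and then ERK, which phosphorylates transcription factors and switches on growth genes and its own inhibitors. U0126 binds MEK and stops it from activating ERK, so that comparison with FGF2 alone asks which transcripts depend on MEK while FGF2 is present. FGF2 is a mitogen for astrocytes and is known to hold them in a less mature state. U0126 is also known to activate the aryl hydrocarbon receptor, a ligand-sensing transcription factor.

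Signals below are the deposited array values on a linear scale, replicate 1 and then replicate 2. Changes are log2(signal + 1.77) differences after quantile normalization, FGF2 with U0126 minus FGF2 unless said otherwise, with their standard error. A gene was called when limma's adjusted p was under 0.05. With the labels silent on separate cultures, these p-values measure only the spread between the samples, which may be technical. In bulk RNA, fewer cells of a type and less RNA per cell cannot be told apart. Signals of different probe sets are not on a common scale, so levels are compared between arrays and not between genes. For Actb, the 3' control probe set over the 5' one, a sign of RNA quality, stood at 1.35 and 1.38 with FGF2 and 1.28 and 1.26 with U0126, and its part in the results was not tested. FGF2 replicate 2 stood apart in a hybridization control, a spiked-in cre transcript, at 11087 against 8328 to 8988 on the 7 other arrays.

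Of 13173 genes tested, 2920 were called between FGF2 with U0126 and FGF2, which is 22.2% of them. With U0126 1537 genes were called higher (11.7%) and 1383 lower (10.5%). Counts of higher and lower members in every gene group below stand against these shares. Which direction had more calls depended on the scaling, since centring each array on the genes tested gave 1289 higher and 1660 lower. At least 2-fold changes made up 165 of the higher and 204 of the lower calls, and 1788 of the calls were under 1.5-fold. The median change over all genes tested was 0.03. Each FGF2 array carries weight in these counts. Without FGF2 replicate 1 the fit called 1855 genes (999 higher, 856 lower) and without FGF2 replicate 2 it called 1790 (942 higher, 848 lower). The higher count was 979 without U0126 replicate 2. Without the intensity trend the fit called 1619 genes and with the mean of probe sets 1781, and the counts in the gene groups described next were lower there too in many cases.

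**Figure D1:**
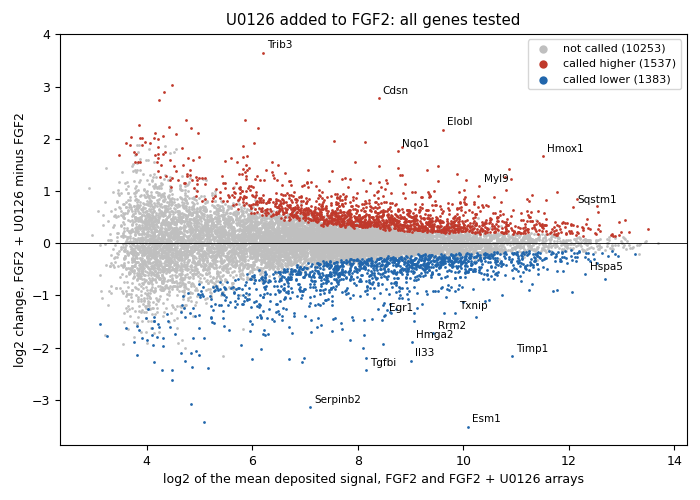
Log2 change with U0126 (vertical axis) against the log2 of the mean signal of the FGF2 and FGF2 with U0126 arrays (horizontal axis) for 13173 genes, with 1537 called higher in red, 1383 called lower in blue and selected genes named. Trib3, at 3.65, and Esm1, at -3.51, are the highest and the lowest of all points.

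Esm1 showed the deepest fall of all genes tested. This gene, which encodes the secreted proteoglycan endocan, read 2027 and 1975 with FGF2 and 156 and 188 with U0126. The change was -3.51 ± 0.11 (limma adjusted p = 1.33e-09), an 11.4-fold fall, which left the U0126 arrays above the vehicle arrays at 104 and 117 (0.66 ± 0.11 against vehicle). Serpinb2, an inhibitor of plasminogen activators, went from 254 and 239 to 27.7 and 23.9 (-3.13 ± 0.17), overlapping vehicle at 25.3 and 31.5. The signals of the groups did not overlap for either gene, which the rule for naming the top genes required. Of 13173 genes tested, 4371 were higher and 3657 lower with U0126 without overlap. Adgrl4, an adhesion receptor of endothelial cells, and Stra6, the receptor for retinol-binding protein, also fell, to signals at the bottom of the scale, where the pseudocount sets the size of a change. Adgrl4 read 64.3 and 62.8 with FGF2 and 1.74 and 7.82 with U0126 (-3.42 ± 0.55), and Stra6 read 54.7 and 51.5 with FGF2 and 3.38 and 5.26 with U0126 (-3.09 ± 0.46). With pseudocount 16 the changes were -1.93 and -1.74, and without U0126 replicate 1 or 2 Adgrl4 stood at -2.58 and -4.26, so both sizes are uncertain. Adgrl4 fell further than Esm1 without U0126 replicate 2 and with pseudocount 1 (-3.64 against -3.52). Tgfbi, a matrix protein named for its induction by TGF-beta, fell to 83.7 and 90.5 from 485 and 476 (-2.44 ± 0.11), and here the vehicle arrays, at 473 and 413, had been close to FGF2 alone. Il33, a nuclear alarmin cytokine, read 786 and 900.3 and then 137 and 227 (-2.25 ± 0.17). Timp1, an inhibitor of metalloproteinases, read 3094 and 3252 and then 649 and 744 (-2.16 ± 0.08). Both fell below their vehicle signals, which were 331 and 307 for Il33 and 936 and 1041 for Timp1. Hmga2, a chromatin protein of fetal and growing tissue, fell from 820.1 and 830.5 to 217 and 222 (-1.90 ± 0.12) and stayed above vehicle at 54.9 and 40.3. Angptl4, an inhibitor of lipoprotein lipase, fell from 187 and 224 to 41.5 and 38.6 (-2.28 ± 0.14). Inmt, an amine methyltransferase, fell from 429 and 513 to 105 and 94.0 (-2.21 ± 0.12), although FGF2 alone was already below vehicle at 1392 and 1481. Prkg2, a kinase activated by cyclic GMP, went from 207 and 211 to 39.5 and 48.0 (-2.20 ± 0.16).

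At the other end, Cdsn, an adhesion protein known from the skin barrier, read 99.4 and 68.1 with FGF2 and 602 and 579 with U0126 (2.78 ± 0.16, limma adjusted p = 1.13e-07). Its vehicle signals of 95.2 and 89.8 and its SB202190 signals of 100.2 and 111 were like those of FGF2 alone, so the 2 U0126 arrays were the only high ones of the 8. Elobl rose from 300.1 and 267 to 1261 and 1321 (2.17 ± 0.08), still far below the 5348 and 6100.5 of vehicle. Bdh1, which encodes an enzyme of ketone body metabolism, rose from 193 and 200.2 to 752 and 685 (1.84 ± 0.10), above its vehicle signals of 482 and 509.7. Ccn5, a secreted matricellular protein, rose from 79.5 and 66.9 to 329.8 and 270.5 (1.96 ± 0.14) with vehicle at 634 and 706. The largest rise was that of Trib3, a pseudokinase of the stress response, at 181 and 89.6 against 20.8 and 2.74 (3.65 ± 0.60). Its FGF2 replicate 2 lay near the bottom of the scale, so the size of this change is uncertain. The other Trib3 probe set changed by 2.54 and was not called.

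**Figure D2:**
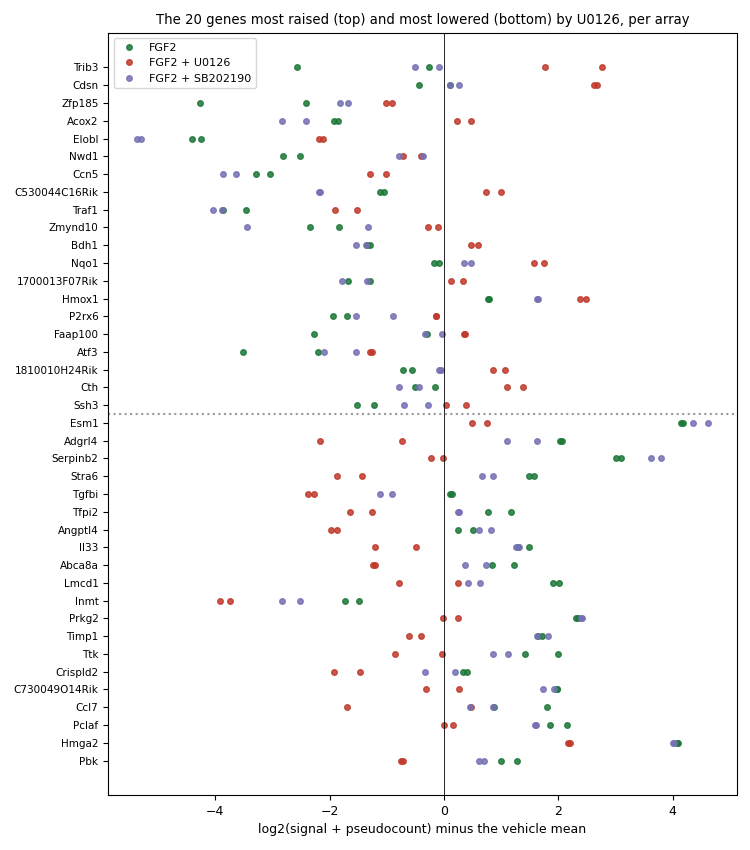
Log2(signal + 1.77) on each array given FGF2 (alone, with U0126 or with SB202190), minus the vehicle mean, for the 20 genes most raised and the 20 most lowered by U0126. For Timp1 and Il33 the U0126 points lie below 0 while the SB202190 points lie with FGF2 alone, and for Elobl and Ccn5 the U0126 points lie between FGF2 and vehicle.

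The list of inhibitors that ERK induces against itself, which also holds the early response gene Ier3, answered unevenly. Of 24 measured, 8 fell and 2 rose, with a median of -0.20 (-0.13 without U0126 replicate 2). With the mean of probe sets 5 fell. Errfi1, an inhibitor of the EGF receptor, read 413 and 439.7 with FGF2 and 204 and 207 with U0126 (-1.04 ± 0.09, limma adjusted p = 4.39e-06). The U0126 arrays were no higher than vehicle at 209 and 220.2. Spry1, a Sprouty protein that blocks signalling upstream of ERK, went from 293 and 280.4 to 175 and 175 (-0.71 ± 0.11). Rasa1, a GTPase-activating protein that turns RAS off, went from 769 and 725 to 511 and 470.3 (-0.60 ± 0.08). Dusp6, the cytoplasmic phosphatase for ERK, fell only from 1174 and 1276 to 907 and 921 (-0.43 ± 0.07), with vehicle at 258 and 258, so most of its FGF2 level was still there. The RAF inhibitors Spred1 (-0.54 ± 0.10) and Spred2 (-0.57 ± 0.07) fell as well, and both also stayed above vehicle. With the mean of probe sets neither was called (-0.25 and -0.30), and Spred1 was not called without the intensity trend. Several inhibitors that FGF2 raised were not called. Spry2 read 768 and 809 with FGF2 and 731 and 750.3 with U0126 (-0.08 ± 0.10), Spry4 read 134 and 92.0 with FGF2 and 114 and 98.5 with U0126 (-0.07 ± 0.21), and Dusp4, a nuclear ERK phosphatase, read 164 and 174 with FGF2 and 162 and 141 with U0126 (-0.18 ± 0.17). For these 3 genes the arrays of the 2 groups were close or overlapped, and their vehicle signals were 339.9 and 301, 24.8 and 27.4 and 36.2 and 24.3. Ier3 (0.79 ± 0.08) and the stress-induced phosphatase Dusp1 (0.42 ± 0.07) rose. Ier3 was higher still with SB202190, at 1668 and 1857 against 1275 and 1335 with U0126 and 735 and 791 with FGF2.

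Of the genes of the cascade itself, from receptor adaptors to ERK substrates, 4 of 19 rose and 1 fell. This is 26.3% of the list called, against 22.2% of all genes. The list median was -0.01, or 0.01 with median centring and 0.04 without FGF2 replicate 1. Fewer were called higher without that array. Gab1, a docking protein of receptor tyrosine kinases, rose from 325 and 342 to 466 and 477 (0.49 ± 0.09). Fgfr3, the FGF receptor typical of astrocytes, rose from 320.3 and 308 to 498 and 469 (0.61 ± 0.09) and was back at its vehicle signals of 499.8 and 487. FGF2 alone had lowered both.

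Among the immediate-early transcription factors, 7 of 25 fell and 4 rose, with a median of -0.17. That median was -0.09 without either FGF2 array, -0.08 without U0126 replicate 1 and -0.04 with the mean of probe sets. These are factors that growth signals induce without new protein synthesis. Ier2 read 282 and 276 with FGF2 and 107 and 96.6 with U0126 (-1.43 ± 0.14). Egr1, a zinc-finger factor downstream of ERK, read 549 and 509.9 with FGF2 and 201 and 205 with U0126 (-1.37 ± 0.09, limma adjusted p = 3.32e-07). In both genes FGF2 alone was at the level of vehicle (247 and 317 for Ier2, 539.6 and 536 for Egr1), so the U0126 arrays were below every other array. Egr3 (-1.41 ± 0.25), Klf10 (-0.91 ± 0.13) and Fos (-0.56 ± 0.11) also fell, although Egr3 was not called with the mean of probe sets and Fos and Atf3 were not without the intensity trend. Fos had already been lower with FGF2, at 627 and 627 against 1212 and 1317 with vehicle, and read 384 and 471 with U0126. Fosl1, a Fos relative that FGF2 raised more than any other member of this group, was not called: it read 358 and 347 with FGF2, 514 and 337 with U0126 and 39.5 and 37.9 with vehicle. Atf3, a factor of the stress response, rose from 12.7 and 34.0 to 65.7 and 67.0 (1.57 ± 0.34), below its vehicle signals of 154 and 174. Nr4a1, Jund and Mafg were the other members called higher, and Junb and Egr2 the other ones called lower. The count of higher members was 2 without FGF2 replicate 1, 1 without FGF2 replicate 2, 2 without U0126 replicate 1 and 1 without the intensity trend.

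ETS factors bind DNA as direct targets of ERK. Of 12 measured, 2 fell and 0 rose, where 10.5% of all genes were called lower, and with the mean of probe sets none was called. Elk3 went from 541 and 669.8 to 348 and 371 (-0.75 ± 0.10, or -0.35 with the mean of probe sets). Ets1, the other call, read 116 and 106 with FGF2 and 80.3 and 66.0 with U0126 (-0.59 ± 0.17), and lost its call without either FGF2 array or without U0126 replicate 2 (changes of -0.53, -0.64 and -0.47). Etv5, commonly read as a marker of FGF signalling, was not called, at 879 and 983 with FGF2, 862 and 839 with U0126 (-0.14 ± 0.08) and 373 and 359 with vehicle. Its relative Etv4 was near the bottom of the scale with vehicle, at 1.67 and 4.45, and read 26.7 and 63.3 with FGF2 and 28.7 and 34.2 with U0126 (-0.38 ± 0.47), with overlapping groups.

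In the plasmin and metalloproteinase list, 8 of 16 fell and 1 rose, and 5 fell without FGF2 replicate 1, without FGF2 replicate 2 or without U0126 replicate 2. Plat, tissue plasminogen activator, fell from 3083 and 3259 to 1658 and 1658 (-0.89 ± 0.06), a call lost with the mean of probe sets (-0.49). Mmp3, stromelysin, fell from 936 and 1025 to 527 and 559 (-0.85 ± 0.07) and reached its vehicle signals of 519.9 and 537. Cd44, the hyaluronan receptor, fell from 3047 and 3198 to 2369 and 2197 (-0.40 ± 0.06) and remained above vehicle at 1526 and 1514.

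Growth factors split. Of 25 measured, 8 fell and 6 rose, the last number being 3 without FGF2 replicate 1, without FGF2 replicate 2 or without U0126 replicate 1. Transcripts of the ligands Fgf2 and Fgf1 fell, Fgf2 from 179.9 and 134 to 57.5 and 41.5 (-1.61 ± 0.19) and Fgf1 from 240.0 and 224 to 116 and 144 (-0.85 ± 0.13). Ligands of the EGF receptor fell too. Ereg read 108 and 103 with FGF2 and 36.0 and 39.5 with U0126 (-1.42 ± 0.21), and Hbegf read 3259 and 3436 with FGF2 and 2131 and 2167 with U0126 (-0.59 ± 0.05). Hbegf stayed above its vehicle signals of 923 and 919.7. Pdgfb fell from 144 and 111 to 48.2 and 67.7 (-1.11 ± 0.20). In the opposite direction, Vegfb rose from 181 and 178 to 269 and 285 (0.60 ± 0.10) and midkine, Mdk, from 317 and 323 to 427 and 446 (0.43 ± 0.09). Among cytokines and chemokines 6 of 15 fell and 2 rose. Ccl2, which attracts monocytes, fell from 178 and 193 to 52.1 and 91.5 (-1.40 ± 0.27). Cx3cl1, the ligand of the microglial receptor Cx3cr1, fell from 786 and 848 to 423 and 441 (-0.92 ± 0.09). Csf1, the growth factor of microglia, rose from 675 and 639 to 1109 and 1111 (0.75 ± 0.07). Fgf1 and Cx3cl1 were not called with the mean of probe sets (-1.03 and -0.27), nor Ccl2 without the intensity trend.

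**Figure D3:**
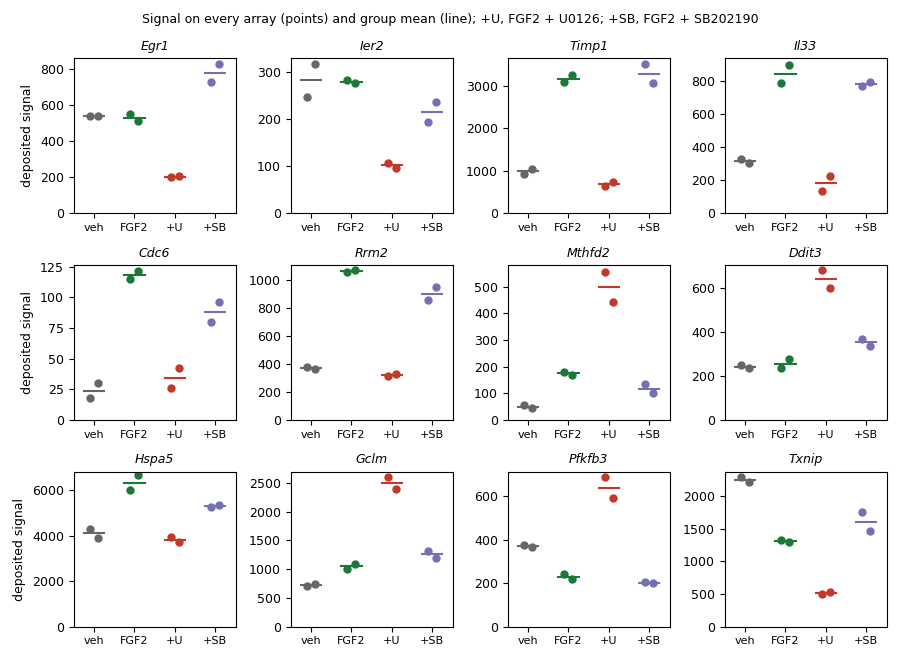
Deposited signal on every array (points) and the group mean (line) for 12 genes in vehicle, FGF2, FGF2 with U0126 (+U) and FGF2 with SB202190 (+SB). The U0126 points are the lowest of all arrays for Egr1, Ier2, Timp1, Il33, Rrm2 and Txnip and the highest for Mthfd2, Ddit3, Gclm and Pfkfb3.

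Most genes of cell division fell. Of 37 DNA replication genes measured, 23 fell and 0 rose, with a median of -0.55, and of 40 mitosis genes 26 fell and 0 rose, with a median of -0.83. With the mean of probe sets 17 of 32 mitosis genes fell. Of all genes, 10.5% were called lower. FGF2 alone had raised 32 and 27 of them over vehicle, against 18.9% of all genes. Rrm2, the subunit of ribonucleotide reductase made in S phase, read 1055 and 1071 with FGF2 and 313 and 329 with U0126 (-1.73 ± 0.08, limma adjusted p = 1.81e-08), with vehicle at 380.3 and 368. Its U0126 arrays were the lowest of the 8. The replicative helicase subunits Mcm6 and Mcm3 fell, Mcm6 from 850.5 and 707 to 333 and 329 (-1.23 ± 0.10) and Mcm3 from 316 and 308 to 154 and 147 (-1.05 ± 0.12). Mcm6 reached its vehicle signals of 332 and 319, while Mcm3 did not, at 104 and 85.8. Cdc6, which loads that helicase onto origins, went from 115 and 121 to 25.7 and 42.4 (-1.76 ± 0.30). Mki67, the proliferation marker, fell from 108 and 121 to 29.5 and 35.9 (-1.73 ± 0.22). Ccna2, cyclin A, fell from 162 and 158 to 61.3 and 63.1 (-1.34 ± 0.16), and Bub1, a kinase of the spindle checkpoint, from 108 and 84.1 to 33.2 and 22.6 (-1.69 ± 0.25). None of these 3 was called between U0126 and vehicle, where Mki67 read 48.8 and 36.0 and Ccna2 68.5 and 73.0. Pcna, the sliding clamp, fell by less, from 4387 and 4530.4 to 3476 and 3368 (-0.28 ± 0.05), and stayed above vehicle at 2706 and 2904. Pcna was not called without the intensity trend.

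The G1 list, which holds cyclins, their kinases and inhibitors and the E2F factors, gave a more mixed picture: 8 of 28 fell and 1 rose, with a median of -0.06 that was 0.01 without U0126 replicate 1. The lower count was 4 without FGF2 replicate 1, FGF2 replicate 2 or U0126 replicate 2, and 5 without U0126 replicate 1, and 4 without the intensity trend. Ccne2, a cyclin E, read 209 and 196 with FGF2 and 59.7 and 86.1 with U0126 (-1.48 ± 0.18), and its relative Ccne1 read 163 and 161 with FGF2 and 97.4 and 75.6 with U0126 (-0.91 ± 0.16). Ccne1 lost its call without _x_at and _s_at probe sets (-0.43). Ccnd1, cyclin D1, was not called with the probe set of highest signal, at 7582 and 8348 with FGF2, 6935 and 6411 with U0126 (-0.11 ± 0.04) and 4334 and 4462 with vehicle. Its 2 other probe sets were called lower, at -0.31 and -0.40. Cdkn2b, an inhibitor of the cyclin D kinases, rose from 795 and 853 to 1121 and 1081 (0.42 ± 0.07), toward its vehicle signals of 1148 and 1277. Other inhibitors of cyclin kinases, Cdkn1b and Cdkn2c, were called lower. Cdkn1b was not called with the mean of probe sets (0.30), nor Cdkn2c without the intensity trend (-0.49). Cdkn2c stood at -0.44 without FGF2 replicate 1 and -0.31 without U0126 replicate 1. Ccnd2, Cdk6, E2f7 and E2f8 were the remaining genes of the list called lower. Genes that build ribosomes were mostly not called: 5 of 29 rose and 3 fell, with a median of -0.07. FGF2 alone had raised 25 of them over vehicle, against 18.9% of all genes. With U0126 present 26 were higher than vehicle, against 16.7% of all genes. Leaving out FGF2 replicate 1 or FGF2 replicate 2 took the 3 lower calls to 0 and the higher ones to 1 and 2. The higher count was 3 without U0126 replicate 1 and 2 without U0126 replicate 2. Eif4ebp1, the inhibitor of cap-dependent translation, was the largest change in that list, from 994 and 1037 to 1592 and 1683 (0.70 ± 0.07).

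The promoters of Mcm6, Mcm5 and Mki67 are shown because members of their lists fell together. Each window runs from 250 bases before to 50 after the transcript start, from RefSeq on the mouse build GRCm38.p6, 5' to 3' on the strand of the gene, with the matches in capitals. Mcm6 (chr1:128359656-128359955, minus strand) has 2 matches to the E2F site TTTGGCGC and Mcm5 (chr8:75109259-75109558, plus strand) has 1. Mki67 (chr7:135716330-135716629, minus strand) has 2 matches to the cell cycle homology region TTTGAA.
Mcm6: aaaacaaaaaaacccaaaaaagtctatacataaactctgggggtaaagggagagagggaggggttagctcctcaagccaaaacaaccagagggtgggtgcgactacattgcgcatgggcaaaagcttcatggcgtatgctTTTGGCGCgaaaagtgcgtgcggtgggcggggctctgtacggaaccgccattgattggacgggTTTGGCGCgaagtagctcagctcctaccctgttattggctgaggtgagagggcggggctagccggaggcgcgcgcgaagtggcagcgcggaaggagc
Mcm5: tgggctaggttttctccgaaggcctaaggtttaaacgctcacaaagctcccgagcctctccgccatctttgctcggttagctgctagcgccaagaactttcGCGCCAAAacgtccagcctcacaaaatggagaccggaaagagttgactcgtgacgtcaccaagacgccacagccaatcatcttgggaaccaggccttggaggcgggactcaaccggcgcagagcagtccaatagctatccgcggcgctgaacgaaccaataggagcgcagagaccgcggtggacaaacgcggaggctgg
Mki67: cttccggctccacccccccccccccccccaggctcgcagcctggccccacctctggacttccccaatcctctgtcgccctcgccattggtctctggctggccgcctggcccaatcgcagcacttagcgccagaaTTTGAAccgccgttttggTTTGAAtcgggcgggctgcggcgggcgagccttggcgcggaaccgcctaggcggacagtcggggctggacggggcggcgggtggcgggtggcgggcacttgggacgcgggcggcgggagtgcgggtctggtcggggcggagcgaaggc
Searched on both strands, TTTGGCGC was in 0.514% of 32851 mouse promoter windows and in 6 of 35 windows of 30 DNA replication genes (17.1%), and a related E2F form, TTTCCCGC, in 1.07% and again in 6 of 35. TTTGAA was in 17.9% of all windows and in 25 of 37 windows of 33 mitosis genes (67.6%). A match describes the letters in this window and not a bound site.

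**Figure D4:**
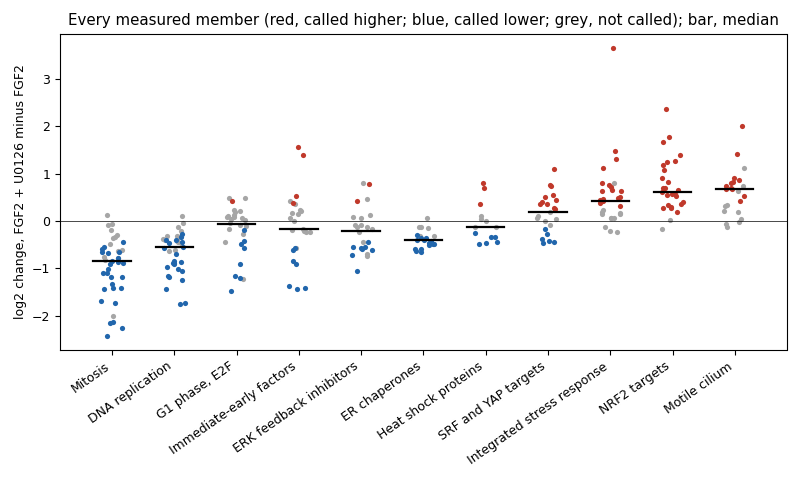
Log2 change with U0126 of every measured member of 11 gene lists (points: red, called higher; blue, called lower; grey, not called) with the median of each list (bar). The medians run from -0.83 in the mitosis list to 0.67 in the motile cilium list, and the immediate-early and SRF lists are among those with members called in both directions.

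Nearly all measured genes of NRF2 rose. NRF2 is the transcription factor that answers oxidants and electrophiles. Of 27 measured targets 25 rose and 0 fell, with a median of 0.62, where 11.7% of all genes were called higher. Nqo1, a quinone reductase, read 188 and 199 with FGF2 and 634 and 717 with U0126 (1.77 ± 0.10, limma adjusted p = 1.09e-07). Hmox1, which degrades heme, read 1409.7 and 1396 with FGF2 and 4264 and 4598 with U0126 (1.66 ± 0.06). The U0126 arrays were the highest of the 8 in both. Gclm, the regulatory subunit of the enzyme that starts glutathione synthesis, rose from 1008 and 1087 to 2599.6 and 2392 (1.27 ± 0.07) and its catalytic partner Gclc from 760.5 and 766 to 1125 and 1113 (0.55 ± 0.06). Srxn1, which repairs oxidized peroxiredoxins, rose from 1157 and 1137 to 2646 and 2703 (1.24 ± 0.06). Blvrb, a biliverdin reductase, rose from 327 and 365 to 876 and 975 (1.40 ± 0.08), and the glutathione transferase Gsta4 from 1792 and 1783 to 3335 and 3252 (0.92 ± 0.05). Txnrd1, a thioredoxin reductase, rose from 2309 and 2167 to 3843 and 3776 (0.83 ± 0.05). FGF2 alone moved these genes in no common direction, with 9 of 27 above and 7 below vehicle, against 18.9% and 19% of all genes. With U0126 21 were above vehicle and 0 below, against 16.7% and 15% of all genes. SB202190 with FGF2 had 11 of the 27 above FGF2 alone, against 1.32% of all genes. Its arrays lay between in several of them: Hmox1 read 2547 and 2516, Srxn1 1751 and 1642 and Txnrd1 3006 and 3036.

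Targets of the aryl hydrocarbon receptor were few. Of 6 measured 3 rose, Nqo1 being among them, and 1, Arnt, the partner of the receptor, fell (-0.53 ± 0.18). Arnt lost its call without FGF2 replicate 1 (-0.36), without U0126 replicate 1 or 2 (-0.47 and -0.59) and without SB202190 replicate 1 or 2 (-0.53 each), and stood at 0.07 with the mean of its probe sets. Cyp1b1, a cytochrome P450 that this receptor induces, read 996 and 1042 with FGF2 and 2733 and 2653 with U0126 (1.42 ± 0.06), with 1815 and 1763 in vehicle. Tiparp, a feedback inhibitor of the receptor, read 629 and 599.7 with FGF2 and 1067 and 1053 with U0126 (0.78 ± 0.07). The U0126 arrays were above all others in both genes. SB202190 over FGF2 alone raised 3 of the 6 and lowered 0, against 1.32% of all genes called higher. The list median was 0.32 with SB202190 and 0.57 with U0126. Cyp1a1, its best-known target, did not pass the filter on low signal.

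The promoters of Gclm (chr3:122245307-122245606, plus strand) and Txnrd1 (chr10:82858956-82859255, plus strand) are shown with the core of the antioxidant response element, TGACNNNGC, in capitals as it stands on either strand, since the list that holds them rose nearly as a whole.
Gclm: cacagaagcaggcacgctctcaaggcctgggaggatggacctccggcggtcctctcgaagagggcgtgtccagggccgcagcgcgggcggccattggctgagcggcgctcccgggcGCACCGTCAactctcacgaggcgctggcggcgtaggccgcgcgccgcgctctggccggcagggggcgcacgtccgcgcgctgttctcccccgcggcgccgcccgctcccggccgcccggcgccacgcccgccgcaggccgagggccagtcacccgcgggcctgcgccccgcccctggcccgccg
Txnrd1: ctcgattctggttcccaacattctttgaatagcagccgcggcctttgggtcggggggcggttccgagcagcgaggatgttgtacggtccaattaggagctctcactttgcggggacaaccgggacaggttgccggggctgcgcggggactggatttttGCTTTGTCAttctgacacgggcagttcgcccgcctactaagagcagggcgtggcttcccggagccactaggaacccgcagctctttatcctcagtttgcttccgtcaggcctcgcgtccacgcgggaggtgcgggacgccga
This core, which can overlap an AP-1 site (TGANTCA), was in 12.4% of all promoter windows and in 8 of 30 windows of 22 genes of the NRF2 list (26.7%). It was higher in other lists, at 9 of 29 windows of the stress response list (31.0%) and 10 of 28 of the immediate-early list (35.7%). AP-1 sites were in 7.81% of all windows and in 5 of 30 of the list (16.7%).

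The factor ATF4 drives the integrated stress response when amino acids run short or translation is restrained. Genes of that response rose in 17 of 30 cases, against 11.7% of all genes, and fell in 0, with a median of 0.43. The count was 11 without U0126 replicate 1 or without the intensity trend. Mthfd2, a mitochondrial folate enzyme, read 181 and 170.0 with FGF2 and 556 and 442 with U0126 (1.47 ± 0.18), against 57.6 and 44.1 with vehicle. Ddit3, the stress factor CHOP, read 235 and 277 with FGF2 and 683 and 599 with U0126 (1.30 ± 0.11, limma adjusted p = 2.65e-06). No other Ddit3 probe set passed the filter on low signal. Averaged over all of them the change was -0.64 and was not called (limma adjusted p = 0.0631). Atf5 rose from 1065 and 1019 to 1773 and 1636 (0.73 ± 0.07) and Aars, the alanyl-tRNA synthetase gene, from 877 and 843 to 1597 and 1385 (0.80 ± 0.10). Asns, asparagine synthetase, rose from 2016 and 1854 to 2556 and 2535 (0.44 ± 0.09), and the amino acid transporter subunit Slc3a2 from 2313 and 2372 to 3069 and 2972 (0.42 ± 0.07). Asns was not called without the intensity trend. In Mthfd2, Atf5, Aars and Asns the order was vehicle, FGF2, U0126 from low to high, with no overlap between these 3 groups. Cth, an enzyme of cysteine synthesis, rose from 137 and 108 to 405 and 334 (1.56 ± 0.17).

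The chaperones of the endoplasmic reticulum, which the unfolded protein response induces, went the other way. Of 20 measured 14 fell and 0 rose, with a median of -0.40, where 10.5% of all genes were called lower. SB202190 over FGF2 alone lowered 5 of the 20, against 1.7% of all genes, with a median of -0.17. Hspa5, the chaperone BiP, read 6015 and 6682 with FGF2 and 3938 and 3744 with U0126 (-0.60 ± 0.06, limma adjusted p = 1.29e-05). Calr, calreticulin, read 2473 and 2806 with FGF2 and 1654 and 1639.9 with U0126 (-0.63 ± 0.06). Pdia6, a disulfide isomerase, read 1882 and 1859 with FGF2 and 1229.8 and 1236 with U0126 (-0.59 ± 0.06), and Hsp90b1 read 2391 and 2476 with FGF2 and 1643 and 1679.8 with U0126 (-0.50 ± 0.06). Xbp1, a transcription factor of that response, fell from 1513 and 1453 to 1019 and 1108 (-0.47 ± 0.06). Pdia6 overlapped its vehicle signals of 1215 and 1292. Hspa5 was slightly below vehicle at 4299.8 and 3917 (-0.19 ± 0.06), and Calr and Hsp90b1 were further below theirs (2517 and 2573 and 2345 and 2288). Pdia6 was not called with the mean of probe sets (-0.61), nor was Dnaja1, named next (-0.15). Cytosolic heat shock proteins were mixed, with 6 of 14 lower and 3 higher. Dnaja1, a co-chaperone, fell from 2720.4 and 2806 to 1951 and 1883 (-0.49 ± 0.05), and the small heat shock protein Hspb8 rose from 954 and 955 to 1493 and 1571 (0.70 ± 0.06).

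Promoters of both stress groups are shown for comparison. Trib3 (chr2:152344011-152344310, minus strand) and Aars (chr8:111033592-111033891, plus strand) hold 1 and 2 matches to the core of the amino acid response element, TGATGNAA, which was searched after the changes had been seen. Hspa5 (chr2:34771840-34772139, plus strand) holds 4 matches to the CCAAT box.
Trib3: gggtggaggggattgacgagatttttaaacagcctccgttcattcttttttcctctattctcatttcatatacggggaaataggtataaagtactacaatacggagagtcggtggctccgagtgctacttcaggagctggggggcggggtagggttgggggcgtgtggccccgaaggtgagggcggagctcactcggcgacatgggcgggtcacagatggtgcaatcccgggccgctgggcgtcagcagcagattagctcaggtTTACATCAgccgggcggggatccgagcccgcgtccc
Aars: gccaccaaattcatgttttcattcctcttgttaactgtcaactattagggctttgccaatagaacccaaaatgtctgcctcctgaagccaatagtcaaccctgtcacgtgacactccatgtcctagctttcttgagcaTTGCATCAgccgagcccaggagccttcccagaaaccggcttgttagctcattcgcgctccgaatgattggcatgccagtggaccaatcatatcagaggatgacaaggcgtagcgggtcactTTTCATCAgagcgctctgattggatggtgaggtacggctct
Hspa5: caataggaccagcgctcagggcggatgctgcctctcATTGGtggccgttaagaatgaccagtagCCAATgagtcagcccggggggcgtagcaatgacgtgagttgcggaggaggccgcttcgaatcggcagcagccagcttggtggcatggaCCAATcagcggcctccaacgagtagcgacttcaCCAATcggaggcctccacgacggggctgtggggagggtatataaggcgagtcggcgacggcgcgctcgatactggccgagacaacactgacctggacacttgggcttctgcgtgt
TGATGNAA was in 3.97% of all windows, in 8 of 29 windows of 25 genes of the stress response list (27.6%) and in 1 of 18 of the chaperone list (5.56%). CCAAT, a short and common motif, was in 37.4% of all windows, in 16 of 29 of the stress response list (55.2%) and in 17 of 18 of the chaperone list (94.4%). It was also in 28 of 37 windows of the mitosis list (75.7%) and 21 of 35 of the DNA replication list.

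**Figure D5:**
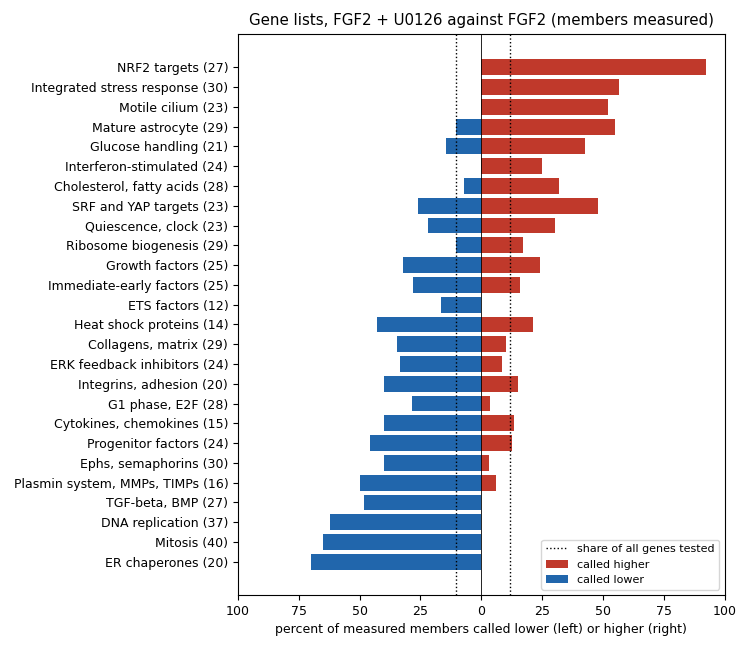
Percent of the measured members of 26 gene lists called lower (blue, left) or higher (red, right) with U0126, with the number of measured members in brackets and dotted lines at the shares of all genes tested, 10.5% lower and 11.7% higher. The NRF2 list stands at the top with 25 of 27 members higher and the chaperones of the endoplasmic reticulum at the bottom with 14 of 20 lower.

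Genes of glucose handling rose in 9 of 21 cases and fell in 3. Pfkfb3, whose product activates glycolysis, read 241 and 219 with FGF2 and 689 and 591 with U0126 (1.44 ± 0.10), above 377 and 367 with vehicle. The glucose transporter gene Slc2a1 read 669 and 622 with FGF2 and 1513 and 1469 with U0126 (1.22 ± 0.07), also above vehicle at 1257 and 1106. The lactate transporter gene Slc16a1 rose from 1806 and 1775 to 3356 and 2798 (0.81 ± 0.08), below vehicle at 3967 and 4043. Ldha, a subunit of lactate dehydrogenase, moved against them, from 2714 and 2715 to 1652 and 1943 (-0.56 ± 0.07), and so did Pdk4, which restrains pyruvate oxidation, from 232 and 219.5 to 157 and 142 (-0.61 ± 0.11). The other gene of the list called lower was the glucose transporter gene Slc2a3. It was not called with the mean of probe sets (-0.37), without the intensity trend (-0.34) or without _x_at and _s_at probe sets (-0.46). Txnip, an inhibitor of glucose uptake and of thioredoxin, is counted with the clock and quiescence genes below. Its signal fell from 1332 and 1299 to 503 and 537 (-1.34 ± 0.08, limma adjusted p = 1.24e-07), well under its vehicle signals of 2279 and 2206. Among genes of cholesterol and fatty acid synthesis 9 of 28 rose and 2 fell, with a median of 0.18, and 4 rose without FGF2 replicate 1 and 5 without U0126 replicate 2. SB202190 over FGF2 alone raised 6 of the 28 and lowered 0, against 1.32% of all genes called higher, with a median of 0.22. Scd2, a fatty acid desaturase, rose from 5314 and 5762 to 6772 and 6427 with U0126 (0.35 ± 0.05).

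Genes of the TGF-beta and BMP pathways fell in 13 of 27 cases, against 10.5% of all genes, and rose in 0, Tgfbi leading. SB202190 over FGF2 alone lowered 6 of the 27, against 1.7% of all genes. The list median was -0.29 with SB202190 and -0.30 with U0126. Ltbp1, which anchors latent TGF-beta in the matrix, fell from 349 and 262 to 97.9 and 110.0 (-1.52 ± 0.15). Id3, an inhibitor of differentiation that BMP induces, fell from 1689.7 and 1663 to 1143 and 1079 (-0.60 ± 0.06). Skil, a repressor of SMAD signalling that TGF-beta induces, fell from 559 and 588 to 313 and 295 (-0.92 ± 0.09). The targets of SRF and YAP, factors that read the state of actin, split by direction: 11 of 23 rose and 6 fell. Myl9, a myosin light chain of smooth muscle, rose. It read 782 and 840.0 with FGF2, 1654 and 1784 with U0126 (1.10 ± 0.07) and 1719.9 and 1597 with vehicle. Cnn1, calponin, rose too, reading 504 and 551 with FGF2, 869.9 and 909 with U0126 (0.74 ± 0.08) and 1228 and 1162 with vehicle. Actn1, an actin crosslinker of focal contacts, fell from 2428 and 2560.3 to 1879 and 1863 (-0.37 ± 0.06), and so did Axl, a receptor tyrosine kinase induced by YAP, from 1028 and 1017 to 711 and 768 (-0.46 ± 0.07). Ltbp1 and Axl were not called with the mean of probe sets (-1.14 and -0.31).

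In the Eph, semaphorin and netrin list 12 of 30 fell and 1 rose. Efnb2, ephrin-B2, fell from 515 and 536 to 198 and 198 (-1.40 ± 0.09), below vehicle at 333 and 295. Nrp1, a semaphorin and VEGF co-receptor, fell from 959 and 993 to 646 and 615 (-0.64 ± 0.07), and the repellent Sema3a from 156 and 167 to 87.2 and 82.6 (-0.92 ± 0.15). Slit1 was the exception, at 41.5 and 26.0 with U0126 against 5.82 and 1.94 (2.74 ± 0.58), low on every array and near the bottom of the scale with FGF2. Of 29 matrix genes 10 fell and 3 rose. Tnc, tenascin C, fell from 1818 and 1923 to 971 and 761 (-1.10 ± 0.10), and Ncan, the brain proteoglycan neurocan, from 201 and 211 to 89.0 and 122 (-0.97 ± 0.15). Col11a1, a fibrillar collagen, rose from 103 and 107 to 263 and 233 (1.20 ± 0.13). Of 20 adhesion genes 8 fell and 3 rose, the last being 1 without U0126 replicate 1. Integrin alpha-3, Itga3, fell from 398 and 389 to 241 and 232 (-0.73 ± 0.09) and Alcam from 136 and 141 to 61.2 and 42.4 (-1.39 ± 0.18). Sema3a and Itga3 were not called with the mean of probe sets.

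Neural progenitor factors fell in 11 of 24 cases and rose in 3, or 1 without FGF2 replicate 2 or without U0126 replicate 1. Emx2, a factor of the developing cortex, fell from 190.5 and 197 to 106 and 102 (-0.89 ± 0.13) and Pax6 from 478 and 449 to 295 and 286 (-0.68 ± 0.08). Hes1, an effector of Notch, fell from 321 and 322 to 208 and 214 (-0.61 ± 0.11) and Fabp7, a lipid carrier of radial glia, from 2833 and 3115 to 2029 and 2301 (-0.41 ± 0.06).

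Markers of the mature astrocyte moved up, in 16 of 29 cases against 3 down, with a median of 0.25. FGF2 had lowered 25 of them and, with U0126, 21 were still below vehicle, against 19% and 15% of all genes called lower in these contrasts. Without the intensity trend 10 rose. Aqp4, the water channel of astrocyte endfeet, read 5502 and 5179 with vehicle, 1592 and 1523 with FGF2 and 2389 and 2351 with U0126 (0.63 ± 0.06, limma adjusted p = 6.28e-06). Gja1, connexin 43, read 4574 and 4709 with vehicle, 2123 and 2146 with FGF2 and 2941 and 2642 with U0126 (0.42 ± 0.06). Kcnj10, the potassium channel Kir4.1, read 788 and 865 with vehicle, 268 and 323 with FGF2 and 541 and 429.9 with U0126 (0.70 ± 0.12). In all 3 the U0126 arrays lay between FGF2 and vehicle without overlap. Mt3, a brain metallothionein, rose from 4736 and 5104 to 6827 and 7229 (0.60 ± 0.05), as high as vehicle at 6728 and 7210.5. The bicarbonate transporter gene Slc4a4 was opposite in both steps, at 601 and 599 with vehicle, 1071 and 1116 with FGF2 and 563 and 501 with U0126 (-1.04 ± 0.09). Of 16 channels and pumps 4 rose and 2 fell. Kcnk1, a leak potassium channel, rose from 274 and 304 to 488 and 499 (0.76 ± 0.09), and Clic1, a chloride channel protein, fell from 4476 and 4894 to 2285 and 2449 (-0.90 ± 0.05) with vehicle at 2109.8 and 2087. Clock and quiescence genes were divided, with 7 of 23 higher and 5 lower. The higher count was 3 without FGF2 replicate 1, FGF2 replicate 2 or U0126 replicate 2, and 4 without U0126 replicate 1. Dbp, a clock output factor, rose from 1261 and 1209 to 2133 and 2108 (0.79 ± 0.08), and Klf15, which glucocorticoids induce, from 89.1 and 96.9 to 223 and 187 (1.10 ± 0.19). Pik3ip1, an inhibitor of phosphoinositide 3-kinase that FOXO induces, fell from 814 and 828 to 501 and 551 (-0.64 ± 0.07).

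Genes of motile cilia, structures of ependymal cells, rose in 12 of 23 cases and fell in 0, with a median of 0.67. FGF2 alone had lowered 18, where 19% of all genes were lower than vehicle. Foxj1, the master factor of motile cilia, read 789 and 802 with vehicle, 380.3 and 337 with FGF2 and 463 and 513 with U0126 (0.43 ± 0.09). Rsph4a, a radial spoke protein, read 288 and 291 with vehicle, 34.3 and 24.4 with FGF2 and 96.9 and 70.2 with U0126 (1.42 ± 0.23). Dynlrb2, a dynein light chain, read 972 and 1104 with vehicle, 238 and 266 with FGF2 and 429.9 and 393 with U0126 (0.68 ± 0.10). The U0126 arrays were above FGF2 and below vehicle in each. Without FGF2 replicate 2 the median of the list was 0.48. Interferon-stimulated genes rose in 6 of 24 cases, or 2 without FGF2 replicate 2 and 3 without U0126 replicate 2. Ifit3 rose from 799 and 764 to 1140.2 and 1496 (0.75 ± 0.12) and Bst2, tetherin, from 418 and 472 to 646 and 747 (0.63 ± 0.09), with vehicle at 2256 and 2600.3 and 666 and 742. Ifit3 stayed below vehicle and Bst2 overlapped it. 5 of 18 genes of the p53 response rose and 2 fell, the higher count being 2 without FGF2 replicate 1 and 3 without FGF2 replicate 2 or either U0126 array. Sesn1, a stress-induced sestrin, read 605 and 567 with FGF2 and 395 and 385 with U0126 (-0.59 ± 0.08), and Perp, a junction protein, read 149.7 and 147 with FGF2 and 223 and 213 with U0126 (0.53 ± 0.11). In antigen presentation and complement 5 of 12 rose, with H2-K1, a class I heavy chain, at 2034 and 2085 and 2742 and 2647 (0.43 ± 0.05).

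Markers of the mature astrocyte summed to 47639 and 50059 with FGF2 and 55553 and 55039 with U0126. Such a sum gives most weight to the markers of highest signal. Of 18 microglia markers on the array 9 passed the filter on low signal, and their summed signal was 465 and 447 with FGF2 and 542 and 558 with U0126. 1 rose, Cd68, a lysosomal protein, from 134 and 149.8 to 251 and 306 (0.94 ± 0.16), where 11.7% of all genes were called higher. The median change of the 9 microglia markers was -0.14, with 2 of them above 0. The 9 measured neuron markers summed to 2639 and 2753 with FGF2 and 2228 and 2231 with U0126. 3 of them fell, or 1 without FGF2 replicate 2, and 1 rose. Oligodendrocyte progenitor markers fell in 3 of 9 cases. Nkx2-2 read 183 and 145 with FGF2 and 73.0 and 83.6 with U0126 (-1.05 ± 0.17), and Pdgfra read 149 and 136 with FGF2 and 81.1 and 67.4 with U0126 (-0.93 ± 0.16; not called, at -0.34, with the mean of probe sets). Their list summed to 4569.8 and 4656 against 3564 and 3709. The median change of these 9 markers was 0.11, with 5 of them above 0. It lay between -0.16 and 0.17 under the settings tried. Of 15 fibroblast and pericyte markers 3 fell and 2 rose, with sums of 16207 and 18958 against 16544 and 16268. Of 7 endothelial markers 2 fell and 1 rose, summing to 629.6 and 696 against 1086 and 990.1. Their median change was 0.52 and lay between -0.32 and 0.55 under the settings tried. The lower ones, Esam and Cdh5, stood at -0.86 and -0.57 without FGF2 replicate 2, and Cdh5 was not called without the intensity trend. Of 3 oligodendrocyte markers that passed, 1, Cnp, fell from 2011 and 2164 to 1508 and 1531 (-0.41 ± 0.06). Microglial genes such as Aif1, Cx3cr1 and P2ry12 did not pass the filter, and the part of other cells in the changes above was not tested.

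SB202190, an inhibitor of p38, was set against U0126, both under FGF2. This contrast shares the U0126 arrays with the one above, so its calls are not independent of those already given. SB202190 with FGF2 against FGF2 alone, which shares the FGF2 arrays, had 398 genes called (3.02%), 174 higher and 224 lower. Between these inhibitors 2989 genes were called (22.7%), or 1813 without SB202190 replicate 2. The label of that array names another type of treatment, acclimatization, with the same growth factor and inhibitor. In this contrast Esm1 was lower with U0126 (-3.84 ± 0.11, limma adjusted p = 2.07e-10), the SB202190 arrays reading 2307 and 2749, and Serpinb2 was lower too (-3.78 ± 0.17) with 413 and 367. Egr1 differed by -1.91 ± 0.09, with SB202190 at 725 and 826, above FGF2 alone. Of the NRF2 targets 19 of 27 were higher with U0126 than with SB202190, and of the stress response genes 20 of 30, against 12.4% of all genes. Over FGF2 alone, SB202190 raised 1 of the stress response genes and lowered 3, against 1.32% and 1.7% of all genes. Of the mitosis genes 18 of 40 were lower with U0126 and 1 was higher, and of the DNA replication genes 14 of 37 were lower, against 10.3% of all genes. SB202190 lowered 1 of the mitosis and 4 of the DNA replication genes below FGF2, against 1.7% of all genes. The median change with SB202190 over FGF2 was -0.30 in both lists, against -0.0048 over all genes tested. With U0126 over FGF2 these list medians were -0.83 and -0.55. The motile cilium list had 16 of 23 members higher with U0126, against 12.4% of all genes. Some genes did not separate the inhibitors at this threshold. Nwd1 rose from 11.9 and 9.42 to 58.0 and 46.3 with U0126 (2.12 ± 0.28) and read 59.7 and 44.2 with SB202190, a difference of 0.02 ± 0.28. Id3 read 1143 and 1079 with U0126 and 1142 and 1112 with SB202190 (-0.03 ± 0.06, limma adjusted p = 0.794), below every FGF2 and vehicle array. Fos read 384 and 471 and 371 and 471 (0.02 ± 0.11).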

How the data were processed

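Total RNA of 8 samples, 2 in each of 4 groups, was hybridized to Affymetrix mouse arrays. The deposited intensity values are on a linear scale, as their range shows, and the sources used here do not say how the authors computed them. The mean of each array was 150 after trimming 2% at each end. Values were taken to log2(value + 1.77), with 1.77 the 10th percentile of all values, and quantile normalized. Of 45101 probe sets 34945 carry 1 gene symbol and were used, 932 carry several and 9211 none, and 13 with a symbol are array controls and were left out. The probe set with the highest mean stood for its gene, and 13173 of 18193 genes passed a filter at the 40th percentile. One limma model (version 3.58.1, R 4.3.3, intensity trend, two-sided, Benjamini-Hochberg over all genes) covered all 8 arrays. It was tested on simulated data.

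Named genes were taken from a set given by a rule. It held the 20 highest and 20 lowest called changes without overlap and with a mean of at least 50 in the higher group. All members of the ERK inhibitor, immediate-early, ETS and G1 lists were in it, and up to 6 members per direction of the other lists. Not every gene of the set is named in the text, and counts of named genes refer to the whole set. Asns, Cdc6, Foxj1, Gclc, Pcna and Txnrd1, and the promoters shown, were chosen after their values were seen. The comparison, the lists and the rule were chosen with earlier results of these data known. Replicate numbers did not pair the samples: deviations of same-numbered arrays correlated between -0.03 and 0.03. Figures used Python 3.11.15 with matplotlib 3.10.9. Promoter windows are from RefSeq (GRCm38.p6) and were matched by gene symbol.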

Additional observations from a re-analysis of the deposited data

How the results depend on the processing

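Counts of called genes depended on the variance prior, the threshold, the choice of probe set and the FGF2 arrays. For FGF2 with U0126 against FGF2 the total, higher and lower counts were 1619, 816 and 803 without the intensity trend, 1621, 817 and 804 at an adjusted p under 0.01, and 1781, 965 and 816 with the mean of probe sets. Testing all probe sets gave 4419, 2140 and 2279, from more features tested, and centring on the tested genes gave 2949, 1289 and 1660; in both, lower calls outnumbered higher ones, unlike in the main counts. Against SB202190 the counts were 1729, 1696 and 1784 under the first 3 of these. Leaving out each array in turn gave 1790 to 2929 in all, 942 to 1523 higher and 848 to 1407 lower, and 1813 to 3008 against SB202190. With the replicate number as a replicate block the counts were 2906, 1530 and 1376, and 2993 against SB202190, and 2 of 288 called named genes lost their call.

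List medians kept their sign under all alternatives for the 8 lists named here. Pseudocount 16 gave -0.47 for DNA replication, -0.66 for mitosis and 0.55 for motile cilium. Leaving out probe sets that end in _x_at or _s_at gave -0.60 for DNA replication and -0.43 for the ERK inhibitors. The mean of probe sets gave -0.042 for immediate-early genes, 0.49 for motile cilium and 0.67 for NRF2 targets. Without a filter motile cilium stood at 0.59, and centring on the tested genes, chosen after seeing the data, gave -0.45 for the chaperones. Leaving out each array gave -0.57 to -0.50 for DNA replication, -0.87 to -0.79 for mitosis, -0.43 to -0.38 for the chaperones, -0.27 to -0.13 for the ERK inhibitors, -0.23 to -0.078 for immediate-early genes, 0.38 to 0.49 for the stress response, 0.48 to 0.67 for motile cilium and 0.59 to 0.74 for NRF2 targets.

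Of 288 called named genes 79 lost their call without some array, 84 with the mean of probe sets and 73 without the trend. With the mean of probe sets the sign turned for Timp2 (-0.034), Cdkn1b (0.30), Wdr12 (-0.064), Arnt (0.069), Idi1 (0.14), Ddit3 (-0.64), Acta2 (-0.12), Itgb1 (0.054), Ifi35 (-0.082) and Gas6 (-0.26), and without _x_at and _s_at probe sets for Cxcl1 (-0.083) and Ifi35 (-0.30). The cause was not tested. The 2 arrays per group limit the precision, and 59.1% to 60.8% of the probe sets read under 50 on each array. Dropping an array or changing the scaling kept the genes tested and the probe set of each.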
